A study of Mus musculus with 12 samples.

Results

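The genes described are the DNA methyltransferases Dnmt1, Dnmt3a and Dnmt3b, their targeting factor Uhrf1, and the TET dioxygenases Tet1, Tet2 and Tet3. They were chosen by name as the rows of the deposited array table annotated to 1 of these symbols alone, and they are 7 of the 30142 genes named in that table. Each had exactly 1 such row, a transcript cluster: TC0900001851.mm.1 for Dnmt1, TC1200000016.mm.1 for Dnmt3a, TC0200002318.mm.1 for Dnmt3b, TC1700001003.mm.1 for Uhrf1, TC1000002269.mm.1 for Tet1, TC0300002982.mm.1 for Tet2 and TC0600002567.mm.1 for Tet3.

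The study used mouse HoxB8-ER cells of C57BL/6 background, in which bone marrow cells carry HOXB8 fused to the hormone-binding domain of the estrogen receptor. In 0.5 µM estradiol they divide as promyelocyte-like progenitors, and they become neutrophils in the 6 days after its removal. The 8 genotype arrays covered wild-type undifferentiated cells, Ezh2-null undifferentiated cells, and neutrophils made from each, with 2 arrays per group. The Ezh2-null and wild-type cells came from littermates, and EZH2 is the histone methyltransferase of Polycomb repressive complex 2 (PRC2). The 4 drug arrays covered wild-type neutrophils from cells given the EZH2 inhibitor GSK343 for 9 days, or its vehicle, with 2 arrays each. The labels give 6 days of differentiation for these arrays too. The 9 days are longer, so by the labels treatment was not confined to the time after estradiol removal. The sample labels give the GSK343 dose as 0.5 µM and the series text as 1 µM, so the dose is unsettled. All 6 groups therefore carry the HOXB8-ER transgene. The labels do not say whether a genotype is more than 1 line or whether the arrays of a group were separate cultures. Genotype and line cannot be told apart. A p-value here reflects variation among arrays alone, and part of that could be technical.

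DNA methylation in mammals is copied to the new strand at each cell division. UHRF1 recognises CpG sites that are methylated on the old strand alone and brings in DNMT1, the maintenance methyltransferase. DNMT3A and DNMT3B set methylation at sites that had none. The TET enzymes oxidise methylcytosine to hydroxymethylcytosine and further products, which are diluted at replication or removed by base excision repair. In human blood, DNMT3A and TET2 are known for their frequent mutation in clonal haematopoiesis and myeloid leukaemia.

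Promoter windows are shown first for Dnmt1, Uhrf1, Dnmt3b and Tet1, because these 4 genes fell in both differentiation comparisons described later. RefSeq windows (build GRCm38.p6, 250 bases before to 50 after an annotated start) were found for 7 of 7 members, 12 windows in all. For Dnmt1 and Uhrf1 the window that holds a motif match is given. Capitals mark matches to the consensus of E2F factors, the regulators of S phase genes, searched on both strands as TTTCCCGC, TTTCGCGC, TTTGCCGC and TTTGGCGC. No marked matches overlap. The sequences run 5′ to 3′ on the gene's strand.
Dnmt1, chr9:20952574-20952873, minus strand: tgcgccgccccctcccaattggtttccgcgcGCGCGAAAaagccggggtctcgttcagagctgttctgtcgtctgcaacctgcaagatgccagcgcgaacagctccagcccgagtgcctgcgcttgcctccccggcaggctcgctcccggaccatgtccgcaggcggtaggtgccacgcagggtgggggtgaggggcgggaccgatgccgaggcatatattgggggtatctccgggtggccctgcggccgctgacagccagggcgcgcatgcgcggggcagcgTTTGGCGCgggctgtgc
Uhrf1, chr17:56304063-56304362, plus strand: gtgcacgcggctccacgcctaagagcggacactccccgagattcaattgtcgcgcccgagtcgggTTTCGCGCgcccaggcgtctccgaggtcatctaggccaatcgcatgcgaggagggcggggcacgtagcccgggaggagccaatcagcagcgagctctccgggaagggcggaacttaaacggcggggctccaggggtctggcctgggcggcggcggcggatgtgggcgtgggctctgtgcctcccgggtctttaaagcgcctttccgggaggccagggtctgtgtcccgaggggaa
Dnmt3b, chr2:153649199-153649498, plus strand: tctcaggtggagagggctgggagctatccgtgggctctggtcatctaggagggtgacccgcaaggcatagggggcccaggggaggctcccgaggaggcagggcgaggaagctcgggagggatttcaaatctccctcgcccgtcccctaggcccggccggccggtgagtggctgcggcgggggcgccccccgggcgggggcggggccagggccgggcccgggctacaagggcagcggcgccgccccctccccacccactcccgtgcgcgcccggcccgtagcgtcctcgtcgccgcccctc
Tet1, chr10:62887275-62887574, minus strand: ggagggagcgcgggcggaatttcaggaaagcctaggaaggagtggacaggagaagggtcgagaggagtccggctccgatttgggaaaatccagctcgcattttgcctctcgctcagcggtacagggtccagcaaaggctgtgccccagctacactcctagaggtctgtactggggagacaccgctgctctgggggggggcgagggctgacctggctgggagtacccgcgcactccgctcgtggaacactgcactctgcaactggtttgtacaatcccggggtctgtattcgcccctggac
The Dnmt1 window holds 2 matches and the Uhrf1 window 1, and no window of the other 5 members holds any. Across all 32851 windows of the same length, 744 (2.27%) hold a match, as do 704 of 27025 genes (2.61%) in any of their windows. CpG dinucleotides number 33 in the Dnmt1 window, 33 in the Uhrf1 window, 30 in the Dnmt3b window and 17 in the Tet1 window, against a median of 7 per window. The Dnmt1 and Uhrf1 windows shown were picked for the match, and the windows of these genes that are not shown hold fewer CpG, 12 and 2 in Dnmt1 and 12 in Uhrf1. The searched forms all contain CG, and the shares over all windows and genes were not matched for CpG content. The motif was chosen after the expression values were known, and a match describes letters, not a binding site.

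Values are log2 signals. Array background, set at the 95th percentile over 23 antigenomic controls, lay between 4.83 and 5.79. Array medians lay between 4.54 and 4.65 in the genotype arrays and between 3.88 and 3.96 in the drug arrays, so the 2 sets look separately normalized and levels are compared only within a set. The 2 arrays of a group correlated at r = 0.984 to 0.995. The Ezh2-null undifferentiated arrays were nearly as close to a wild-type array (0.982) as to each other (0.984). GSK343 array 2 was closer to a vehicle array (0.9947) than to its replicate (0.9935). Of 12 neutrophil markers, 12 were above background on every neutrophil array. On undifferentiated arrays the count was 6 and 6 in wild type and 8 and 7 in Ezh2-null cells. Such a count alone does not settle cell identity, and markers of other cell types are given below. As a check of the genotype labels, Ezh2 signal was 11.57 and 11.65 in wild-type and 9.10 and 9.44 in Ezh2-null undifferentiated cells, 5.07-fold lower (log2 fold change −2.34, SE 0.15, limma adjusted p = 5.5e-05). It was 8.31 and 8.34 in wild-type neutrophils but 8.74 and 9.02 in neutrophils labelled Ezh2-null, so there the target gene was not lower than in wild type (adjusted p = 0.0501). In wild type Ezh2 fell 9.75-fold on differentiation (adjusted p = 1.23e-06), to a mean of 8.33, under the 9.27 of Ezh2-null progenitors. Between Ezh2-null progenitors and the neutrophils labelled Ezh2-null no change was called (−0.39, adjusted p = 0.113). Ezh2 signal thus cannot settle the label at the neutrophil stage. The group is therefore called neutrophils labelled Ezh2-null throughout. Which part of Ezh2 the cluster's probes cover is not given in the sources used here.

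**Figure D1:**
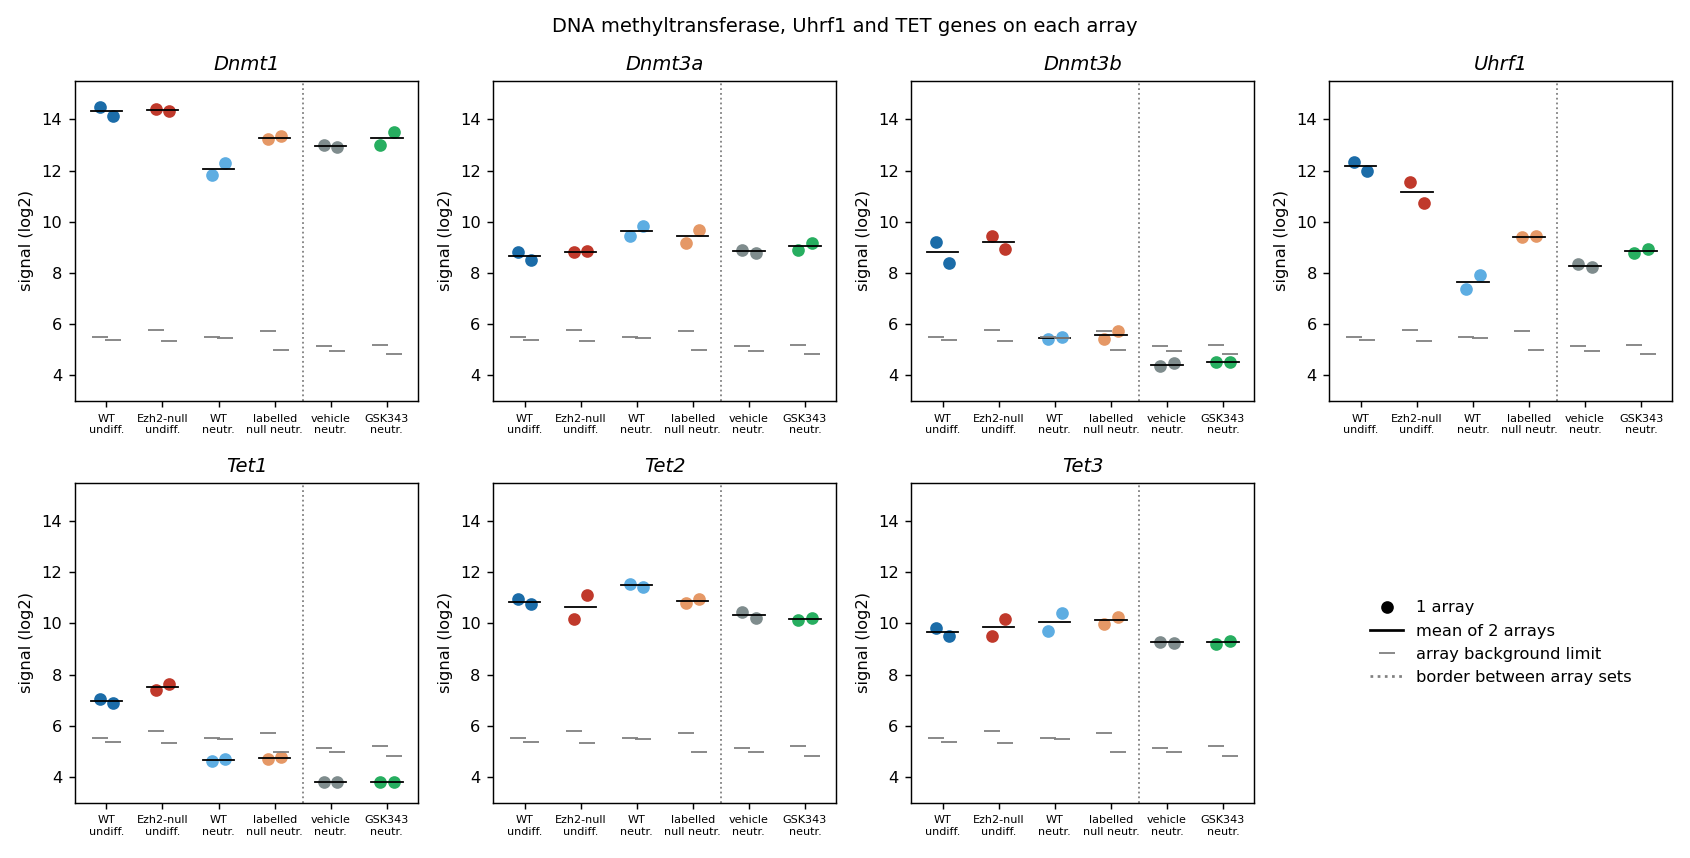
Log2 signal of each member (y axis) in the 6 groups (x axis). Points are arrays, black lines the mean of 2 arrays, grey dashes the background limit of each array, and the dotted line separates the genotype arrays from the drug arrays, which are not on 1 scale. "Labelled null" neutrophils are those labelled Ezh2-null. Dnmt1 and Uhrf1 are lowest in wild-type neutrophils among the genotype arrays, and Tet1 lies under the limit on all 8 neutrophil arrays.

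Dnmt1, Dnmt3a, Uhrf1, Tet2 and Tet3 lay above background on 12 of 12 arrays. Dnmt3b did so on 6 arrays and Tet1 on 4. With the median over 5222 negative controls as the limit instead, Dnmt3b was above it on 4 arrays, Tet1 on 4, and the other members again on 12.

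When wild-type progenitors became neutrophils, 4 of the 7 genes fell, 1 rose and 2 did not pass the test. The maintenance pair Dnmt1 and Uhrf1, the de novo enzyme Dnmt3b, and Tet1 fell, while the other de novo enzyme, Dnmt3a, rose. Calls are limma adjusted p-values under 0.05, Benjamini-Hochberg adjusted over all 65956 transcript clusters. In this comparison 12.2% of all clusters were called lower and 13% higher. A filter on dim clusters kept the 25790 above background on both arrays of at least 1 group, all 7 members among them. Tet1 and Dnmt3b passed this filter through the progenitor groups alone, so their fall is not independent of it. Refitted on the kept clusters, 7708 were called lower and 7822 higher. The members' median log2 fold change was −2.26, or −1.48 with Tet1 at the bound given for it, against 0.03 over all clusters. Markers of several cell types moved with this comparison. All 12 neutrophil markers rose and all 8 promyelocyte and progenitor markers fell. Of 11 monocyte and macrophage markers 8 rose, and of 12 mast cell and basophil markers 6 fell. Erythroid markers fell in 2 of 11 cases, an eosinophil marker rose in 1 of 5, and none of 5 lymphoid markers was called. The part of these cells in the members' values was not tested.

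Dnmt1 signal was 14.50 and 14.15 in wild-type undifferentiated cells and 11.82 and 12.31 in wild-type neutrophils. Both neutrophil arrays lay below both progenitor arrays, a 4.79-fold drop (log2 fold change −2.26, SE 0.21, adjusted p = 4.73e-05). In bulk RNA such a drop can come from fewer cells that express a gene or from less RNA per cell, and these cannot be told apart.

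Uhrf1 was 12.34 and 11.99 in wild-type progenitors and 7.36 and 7.91 in their neutrophils. The groups did not overlap and the drop was 23.2-fold (log2 fold change −4.53, SE 0.26, adjusted p = 3.66e-06). Uhrf1 stayed above background on both wild-type neutrophil arrays.

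Dnmt3b was 9.21 and 8.41 in wild-type progenitors and 5.43 and 5.49 in wild-type neutrophils. Of the latter, 1 of 2 arrays was above background. The fitted log2 fold change was −3.35 (SE 0.26, adjusted p = 1.51e-05). Its neutrophil signals lay at the background limit and under the median of the negative controls, so this value does not give an exact size. Dnmt3a went the other way, from 8.82 and 8.50 to 9.44 and 9.85, without overlap (log2 fold change 0.98, SE 0.21, adjusted p = 0.00619). That call was lost without wild-type undifferentiated array 2 (0.83, adjusted p = 0.0565) and without wild-type neutrophil array 2 (0.78, adjusted p = 0.0519).

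Tet1 was 7.05 and 6.89 in wild-type progenitors and at or under background in both wild-type neutrophil arrays, at 4.63 and 4.69. It was at least 2.79-fold lower there (fitted log2 fold change −2.31, adjusted p = 2.13e-06). For this bound the progenitor mean was set against the neutrophil background limit. The other TET genes did not pass the test. Tet2 was 10.95 and 10.76 in progenitors and 11.53 and 11.44 in neutrophils, both higher (log2 fold change 0.63, 95% interval 0.04 to 1.22, adjusted p = 0.125). The Tet2 value passed when only these 4 arrays were fitted (adjusted p = 0.0293) or when either Ezh2-null undifferentiated array was left out (0.0075 each). Tet3 overlapped, with 9.83 and 9.53 against 9.72 and 10.43 (log2 fold change 0.40, 95% interval −0.21 to 1.01, adjusted p = 0.376).

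Between Ezh2-null progenitors and neutrophils labelled Ezh2-null, the same 4 genes, Dnmt1, Uhrf1, Dnmt3b and Tet1, fell and none rose. Over all clusters 10.7% were called lower and 11.7% higher. With dim clusters left out by the same filter, 6633 of 25790 were called lower and 7044 higher. The genotype of these neutrophils rests on a label that Ezh2 signal could not settle at this stage. Their stage was marked by neutrophil genes, of which 12 of 12 rose, while 6 of 8 progenitor markers fell. Markers of other cell types moved as well: 10 of 11 erythroid markers rose, 8 of 12 mast cell and basophil markers rose and 3 fell, 8 of 11 monocyte and macrophage markers rose, and 2 of 5 eosinophil markers rose. Their part in the members' values was not tested.

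Dnmt1 was 14.39 and 14.33 in Ezh2-null progenitors and 13.22 and 13.34 in neutrophils labelled Ezh2-null, 2.11-fold lower (log2 fold change −1.08, SE 0.21, adjusted p = 0.00541). Uhrf1 was 11.55 and 10.75 and then 9.41 and 9.44, 3.31-fold lower (−1.73, SE 0.26, adjusted p = 0.00141). In neither gene did the groups overlap. Dnmt3b went from 9.45 and 8.95 to 5.42 and 5.72, with 1 of the 2 neutrophil arrays above background (fitted value −3.64, SE 0.26, adjusted p = 1.57e-05), again not an exact size. Tet1 went from 7.40 and 7.64 to 4.70 and 4.78, both under background, and was at least 4.49-fold lower (adjusted p = 1.23e-06). The negative control medians of these neutrophil arrays, 6.15 and 6.14, would again give a smaller bound.

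The remaining members did not pass the test. Dnmt3a was 8.83 and 8.85 in Ezh2-null progenitors and 9.18 and 9.68 in the neutrophils (log2 fold change 0.59, 95% interval 0.13 to 1.06, adjusted p = 0.073). It passed without labelled Ezh2-null neutrophil array 1 (0.84, adjusted p = 0.0372), and without array 2 the value was 0.34 (adjusted p = 0.392). Tet2 was 10.16 and 11.13 against 10.82 and 10.96, a spread of its progenitor arrays that spans both neutrophil values (0.25, adjusted p = 0.611). Without Ezh2-null undifferentiated array 2 its value was 0.73 (adjusted p = 0.0123), and without array 1 it was −0.24. Tet3 was 9.51 and 10.18 against 9.98 and 10.27 (0.28, adjusted p = 0.564).

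**Figure D2:**
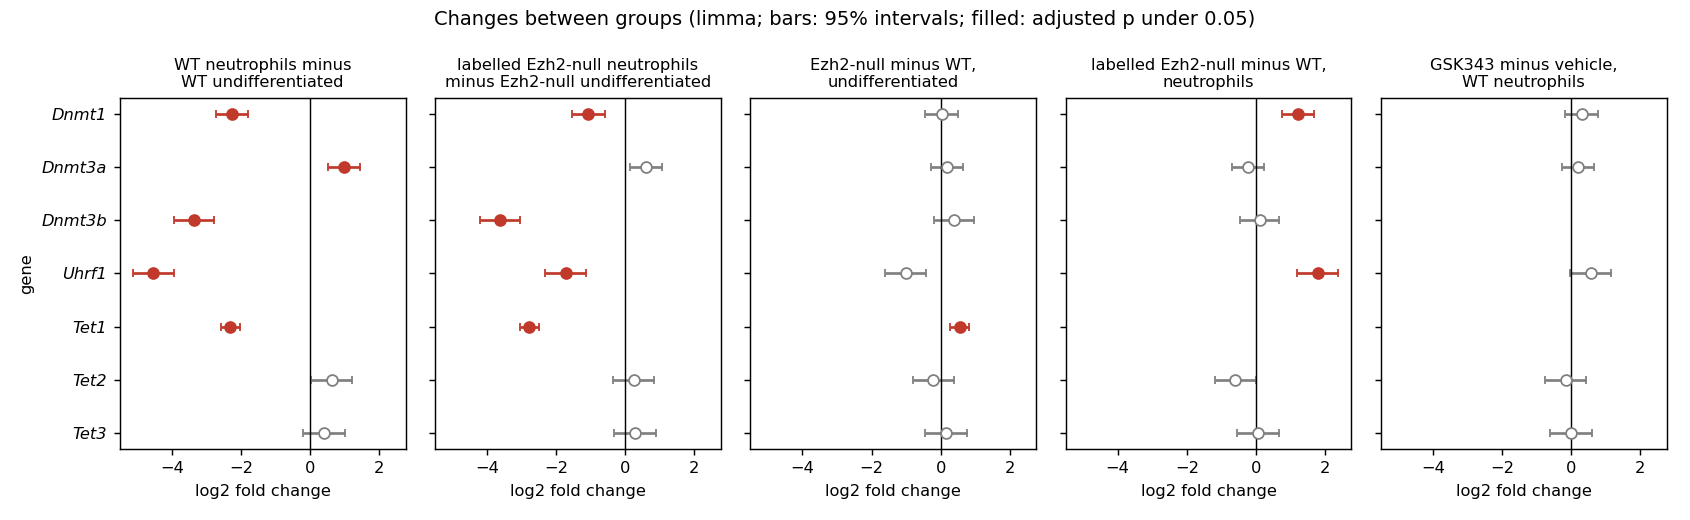
Log2 fold changes (x axis) of the 7 genes (y axis) in 5 comparisons, 1 panel each. Points are limma estimates from 2 arrays per group, bars 95% intervals, and filled red points adjusted p under 0.05. Dnmt1 and Uhrf1 pass the test in both differentiation panels and, in the other direction, between the neutrophil groups, while no gene passes with GSK343. No point is drawn for Tet1 between neutrophil groups and with GSK343, or for Dnmt3b with GSK343, where all signals lie under background. Tet1 in the differentiation panels is drawn as fitted.

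In undifferentiated cells 1 of the 7 genes passed the test between genotypes. Tet1 rose from 7.05 and 6.89 to 7.40 and 7.64, both Ezh2-null arrays above both wild-type arrays, by 1.47-fold (log2 fold change 0.55, SE 0.12, adjusted p = 0.0466). Over all clusters 1.65% were called higher, and with dim clusters left out 827 of 25790. The Tet1 call was lost in 17 of 19 alternatives (adjusted p from 0.0201 to 0.404 over all 19).

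Uhrf1 was lower in both Ezh2-null arrays (11.55 and 10.75) than in both wild-type arrays (12.34 and 11.99). The log2 fold change of −1.01 did not pass the test (95% interval −1.61 to −0.42, adjusted p = 0.097). Without Ezh2-null undifferentiated array 1 it was −1.41 and passed (adjusted p = 0.0126), and without array 2 it was −0.61 and did not pass. The 2 Ezh2-null arrays also differed in the S phase list described below, with list medians of 12.17 on array 1 and 11.23 on array 2, against 11.99 and 11.59 in wild type. Cell type markers moved here too. Progenitor markers fell in 3 of 8 cases (lowest log2 fold change −6.86) and monocyte and macrophage markers in 2 of 11 (lowest −6.71). Of the neutrophil markers 2 rose and 1 fell, of the mast cell and basophil markers 2 rose and 1 fell, and 1 of 11 erythroid markers rose. The part of these in the Uhrf1 and Tet1 values was not tested. Dnmt1, the partner of UHRF1, gave no difference that passed (0.04, 95% interval −0.44 to 0.51, adjusted p = 0.981). The estimates for Dnmt3a, Dnmt3b, Tet2 and Tet3 lay between −0.21 and 0.39, with adjusted p from 0.649 to 0.916.

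Between the 2 groups of neutrophils, the maintenance pair rose and the other 5 genes did not pass the test. Over all clusters 6.75% were called higher and 5.06% lower. With dim clusters left out, 4259 of 25790 were called higher and 3574 lower. Dnmt1 was 11.82 and 12.31 in wild-type neutrophils and 13.22 and 13.34 in those labelled Ezh2-null, without overlap. This was 2.33-fold higher, a log2 difference of 1.22 (SE 0.21, adjusted p = 0.00525). Uhrf1 was 7.36 and 7.91 against 9.41 and 9.44, again without overlap and 3.46-fold higher (1.79, SE 0.26, adjusted p = 0.00231). Both calls held in all 19 alternatives, with adjusted p up to 0.0464 for Dnmt1 and 0.0222 for Uhrf1.

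Tet2 was lower on both labelled Ezh2-null arrays (10.82 and 10.96) than on both wild-type arrays (11.53 and 11.44), but did not pass (−0.60, 95% interval −1.19 to 0.00, adjusted p = 0.218). It passed when either Ezh2-null undifferentiated array was left out of the fit (adjusted p = 0.0194 each). Dnmt3a overlapped (−0.22, adjusted p = 0.648), as did Tet3 (0.05, adjusted p = 0.958). Dnmt3b was above background on 1 of 2 arrays in each group (adjusted p = 0.891). Tet1 was under background on all 4 arrays, so no fold is given.

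Markers of other cell types moved with this comparison. All 12 mast cell and basophil markers were called higher in neutrophils labelled Ezh2-null. The median level of that list was 10.76 and 11.25 there, against 4.99 and 5.04 in wild-type neutrophils, with 11 of 12 markers above background against 4 and 5. All 11 measured erythroid markers were called higher too, with medians of 11.63 and 11.73 against 4.74 and 4.76 and 11 of 11 above background against 2. Progenitor markers were called higher in 3 of 8 cases (medians 7.38 and 6.10 against 6.97 and 6.54) and eosinophil markers in 2 of 5. Neutrophil markers were called lower in 4 of 12 cases (medians 15.93 and 15.75 against 17.48 and 16.57), and monocyte and macrophage markers in 6 of 11. None of 5 lymphoid markers was called or above background. The part of these cells or programmes in the Dnmt1 and Uhrf1 values was not tested.

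The fall of Uhrf1 on differentiation differed between the cells labelled wild type and Ezh2-null. It fell by 4.53 log2 units in wild type and fell by 1.73 in cells labelled Ezh2-null. In the interaction test 2.77% of all clusters were called higher, and 1995 of 25790 with dim clusters left out. For Uhrf1 the difference in that test was 2.81 (SE 0.37, adjusted p = 0.00371). The call held in all 19 alternatives (2.41 to 3.21 when 1 array was left out). For Dnmt1 the same difference was 1.18 (SE 0.30) and did not pass (adjusted p = 0.0629). It passed with dim clusters left out (adjusted p = 0.0452) and without wild-type neutrophil array 2 (1.43, adjusted p = 0.0325). Dnmt3a (−0.39, adjusted p = 0.647), Tet2 (−0.38, adjusted p = 0.763) and Tet3 (−0.12, adjusted p = 0.955) did not pass. No interaction is read for Tet1 and Dnmt3b, whose neutrophil signals lay under or at the background limit.

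With GSK343 none of the 7 genes passed the test. None had an unadjusted p under 0.05 either, and of all 65956 clusters 1 was called (0.00152%) and 3963 had an unadjusted p under 0.05. Uhrf1 was 8.33 and 8.22 with vehicle and 8.77 and 8.92 with GSK343, so both treated arrays were higher (log2 fold change 0.57, 95% interval −0.03 to 1.17, adjusted p = 0.853). Dnmt1 was 12.98 and 12.94 with vehicle and 13.01 and 13.50 with GSK343 (0.30, 95% interval −0.18 to 0.77, adjusted p = 0.972). These intervals leave room for changes of up to 1.17 and 0.77 log2 units.

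Dnmt3a was 8.91 and 8.77 with vehicle against 8.91 and 9.17 with GSK343 (0.20, 95% interval −0.26 to 0.67). Tet2 was 10.46 and 10.20 against 10.13 and 10.21 (−0.16, 95% interval −0.75 to 0.44). Tet3 was 9.29 and 9.24 against 9.20 and 9.32 (0.00, 95% interval −0.61 to 0.61). Adjusted p was 1 for each of these genes. Dnmt3b (4.36 to 4.52) and Tet1 (3.81 to 3.82) were under background on all 4 drug arrays, so no fold is given.

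The genotype difference in neutrophils was also set against the drug difference. For Uhrf1 the first exceeded the second by 1.22 log2 units (SE 0.37, adjusted p = 0.148) and for Dnmt1 by 0.92 (SE 0.30, adjusted p = 0.175). Neither passed, in a comparison where 3.3% of clusters were called in either direction. The Uhrf1 value passed without either Ezh2-null undifferentiated array (adjusted p = 0.0433 each). This comparison takes a difference between the 2 array sets.

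The order of levels over the 4 genotype groups followed from these tests and from 1 further contrast, between neutrophils labelled Ezh2-null and wild-type progenitors, in which 20.9% of all clusters were called. Another, between wild-type neutrophils and Ezh2-null progenitors, called 19408 of 65956 clusters. In it 2 of the 7 members were called higher and 4 lower. Dnmt1 was highest in both progenitor groups (means 14.36 and 14.32, a difference that did not pass), then in neutrophils labelled Ezh2-null (13.28) and lowest in wild-type neutrophils (12.06). Its neutrophils labelled Ezh2-null were 2.06-fold below wild-type progenitors (adjusted p = 0.00671, with no alternative run). Uhrf1 ran from wild-type progenitors (12.16) through Ezh2-null progenitors (11.15) and neutrophils labelled Ezh2-null (9.42) to wild-type neutrophils (7.63). In that order only the first neighbours did not pass the test.

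Dnmt3a ran the other way, from wild-type neutrophils (9.65) and neutrophils labelled Ezh2-null (9.43) to Ezh2-null progenitors (8.84) and wild-type progenitors (8.66). No neighbours passed the test. Tet2 ran from wild-type neutrophils (11.49) through neutrophils labelled Ezh2-null (10.89) and wild-type progenitors (10.86) to Ezh2-null progenitors (10.64), and none of these neighbours passed the test. Wild-type neutrophils did lie above Ezh2-null progenitors in Tet2 (0.84, adjusted p = 0.038) and Dnmt3a (0.81, adjusted p = 0.0149), with no alternative run. Dnmt3b had 2 levels, progenitors (9.20 in Ezh2-null, 8.81 in wild type) and neutrophils (5.57 labelled Ezh2-null, 5.46 wild type), with no difference called between the genotypes at either. Tet1 was highest in Ezh2-null progenitors (7.52), then in wild-type progenitors (6.97), and under background in both kinds of neutrophil. Tet3 means spanned 9.68 to 10.13, and none of the differences tested passed.

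The S phase and cell cycle list, 20 measured genes of 22, was followed beside Dnmt1 and Uhrf1. For this list and those below, the shares of all clusters called are those given above for each comparison. With dim clusters left out, 7822 of 25790 were called higher and 7708 lower in wild-type differentiation. The counts were 7044 and 6633 in cells labelled Ezh2-null, and 4259 and 3574 between the neutrophil groups. In wild-type differentiation 19 genes of the S phase list fell and 1 rose, with a median log2 fold change of −3.39 against 0.03 over all clusters. The replicative helicase subunits Mcm2 (−5.54), Mcm3 (−5.15) and Mcm6 (−4.99) fell most, and the transcription factor gene E2f2 rose (3.87). In cells labelled Ezh2-null 10 fell and 2 rose on differentiation, with a median of −0.69. Mcm3 (−2.31), the thymidylate synthase gene Tyms (−2.07) and Mcm6 (−1.92) fell most, and E2f2 (4.25) and the proliferation marker Mki67 (1.53) rose.

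Between the neutrophil groups 17 of the 20 genes were higher in those labelled Ezh2-null (median 2.48, against −0.03 over all clusters). Cdc6, which loads the helicase, led with 4.22, followed by Mcm2 (3.99) and the ribonucleotide reductase subunit Rrm2 (3.74). The list's median level was 11.31 and 11.06 on the labelled Ezh2-null arrays and 8.50 and 8.88 on the wild-type arrays. In the interaction 14 of the 20 were called, with a median of 2.91. None was called with GSK343 (median 0.58) or between progenitor genotypes (median −0.18, with 4 called without Ezh2-null undifferentiated array 1). Dnmt1 and Uhrf1 therefore differed between the neutrophil groups beside most of this list. The part of cell division in their values was not tested.

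**Figure D3:**
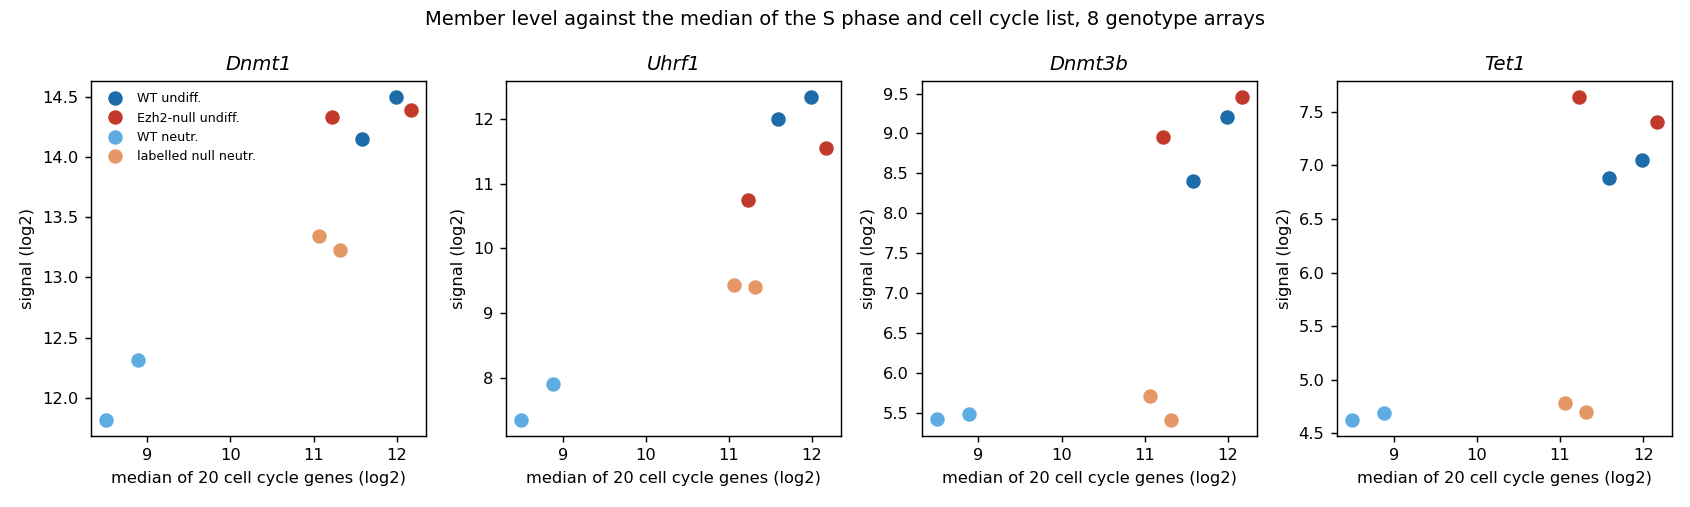
Log2 signal of Dnmt1, Uhrf1, Dnmt3b and Tet1 (y axes, 1 panel each, axes not starting at 0) against the median log2 signal of the 20 S phase and cell cycle genes (x axis) on the 8 genotype arrays, coloured by group. Neutrophils labelled Ezh2-null have list medians of 11.31 and 11.06, near those of progenitors. In these neutrophils Dnmt1 and Uhrf1 lie between the wild-type neutrophils and the progenitors, while Dnmt3b and Tet1 lie beside the wild-type neutrophils.

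Cofactors of the methyltransferases were followed next. Of 11 cofactor genes, 7 fell and none rose in wild-type differentiation (median −0.84). Cdca7 (−4.54) and Hells (−4.23), which form a chromatin remodeller that DNA methylation needs, fell most, followed by the corepressor gene Trim28 (−3.48). In cells labelled Ezh2-null 5 fell, led by Cdca7 (−3.68), Hells (−2.88) and Trim28 (−2.48), with a median of −0.64.

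In neutrophils labelled Ezh2-null 4 cofactor genes were higher than in wild type and 1 was lower (median 0.46). The 3 largest increases were in Pcna, the sliding clamp that binds DNMT1 (1.42), Hells (1.21) and Trim28 (1.19). The histone methyltransferase gene Ehmt2 fell (−0.87), as it did between progenitor genotypes (−0.82, adjusted p = 0.0431). The latter call was lost in 15 alternatives. Pcna (1.64) and Hells (1.34) were called in the interaction, but no cofactor was when only the genotype arrays were fitted. The 5 calls between neutrophil groups became 2 without labelled Ezh2-null neutrophil array 1 and 3 without its array 2, without wild-type neutrophil array 2, or with only these 4 arrays fitted. None of the 11 was called with GSK343.

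Genes that supply the methyl donor S-adenosylmethionine and clear its product also fell. In wild-type differentiation 7 of 8 measured genes fell, with a median of −3.07. They were led by the mitochondrial serine hydroxymethyltransferase gene Shmt2 (−6.28), Ahcy, which hydrolyses the product S-adenosylhomocysteine (−4.64), and the cytosolic Shmt1, which was under background on both wild-type neutrophil arrays and at least 18.8-fold lower. In cells labelled Ezh2-null 6 fell (median −1.43), among them Shmt2 at −3.67 and Ahcy at −3.12. Shmt1 also fell (adjusted p = 1.2e-07), with 1 of 2 neutrophil arrays above background. Between the neutrophil groups 5 of 8 were higher in those labelled Ezh2-null (median 0.87), led by the folate enzyme gene Mthfd1 (3.41), Shmt2 (2.68) and Ahcy (2.00). The same genes, Mthfd1 (2.83), Shmt2 (2.60) and Ahcy (1.52), were the 3 called in the interaction, which fell to 1 when only the genotype arrays were fitted. None was called between progenitor genotypes or with GSK343.

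Genes around the TET enzymes were called in both directions. Of 10 measured partners and suppliers of the TET cosubstrate alpha-ketoglutarate, 2 rose and 4 fell in wild-type differentiation (median −0.13). Beside 7822 of 25790 clusters called higher and 7708 lower with dim clusters left out, these counts are not read as a trait of the list. Slc23a2, a vitamin C transporter gene (1.75), and Ogt, the O-GlcNAc transferase that binds TET proteins (1.47), rose. The isocitrate dehydrogenase genes Idh3a (−4.17) and Idh2 (−3.94) fell. So did the zinc finger gene Cxxc5, under background in wild-type neutrophils and at least 2.03-fold lower. In cells labelled Ezh2-null 2 rose and 4 fell, among them Ogt (1.89), Slc23a2 (1.07), Idh2 (−4.04), Idh3a (−2.13) and Cxxc5 (at least 1.95-fold lower). For Cxxc5 the progenitor mean there was 6.32, against negative control medians of 6.15 and 6.14 in the neutrophils. Between the neutrophil groups Idh3a was higher in those labelled Ezh2-null (2.53) and D2hgdh, which clears D-2-hydroxyglutarate, was lower (adjusted p = 0.000559), with 1 of its 2 arrays there above background. Idh3a was also called in the interaction (2.04), but not when only the genotype arrays were fitted. None of the 10 was called between progenitor genotypes or with GSK343.

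Base excision and demethylation enzymes were also called in both directions. In wild-type differentiation 4 of 10 rose and 4 fell (median 0.08). Beside 7822 of 25790 clusters called higher and 7708 lower with dim clusters left out, this too is not read as a trait of the list. The cytidine deaminase gene Apobec1 (4.57) and the stress genes Gadd45b (2.19) and Gadd45a (1.34) rose most, while the repair genes Apex1 (−3.87), Lig3 (−2.44) and Xrcc1 (−0.88) fell most. In cells labelled Ezh2-null 4 rose and 3 fell, with Apobec1 at 4.83, Gadd45b at 2.68, Gadd45a at 1.98, Apex1 at −3.14, Lig3 at −2.12 and Xrcc1 at −0.79. Between the neutrophil groups 1 was called, the repair polymerase gene Polb (−0.73, adjusted p = 0.0281), and no gene of this list was called there when only the genotype arrays were fitted. None was called between progenitor genotypes or with GSK343.

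Of 6 measured genes in the list of methyl-CpG readers and related genes, 2 rose and 2 fell in wild-type differentiation. Beside 7822 of 25790 clusters called higher and 7708 lower with dim clusters left out, these counts are not read as a trait either. Mbd2 (1.36) and Zbtb4 (0.77) rose, and Mbd4 (−0.85), a glycosylase also counted among the base excision enzymes, and Mbd3 (−0.54) fell. In cells labelled Ezh2-null 1 was called, Mbd2 (1.51), and none was called between genotypes or with GSK343. Of 16 germline genes known to be silenced by promoter methylation in somatic cells, at most 1 was above background on any array. Ddx4 was called lower in wild-type differentiation (adjusted p = 0.00105) and was under background on both wild-type neutrophil arrays, at least 1.28-fold below progenitors. It was also called higher in neutrophils labelled Ezh2-null than in wild type (adjusted p = 0.0176), with 1 of 2 arrays there above background. Ddx4 was called in the interaction too (adjusted p = 0.0232). Neither of these 2 calls was kept when only the genotype arrays were fitted. DNA methylation itself was not measured here.

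**Figure D4:**
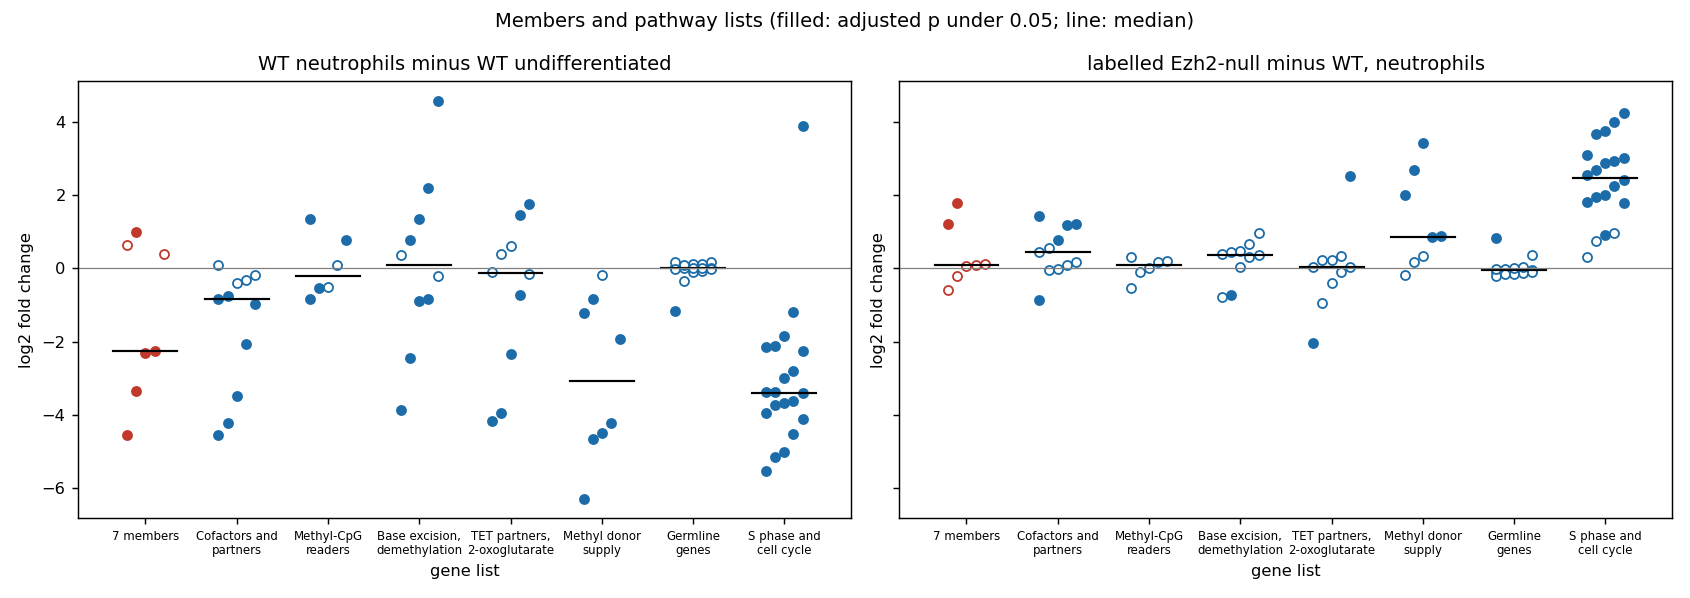
Log2 fold changes (y axis) of the 7 members (red) and of the genes of 7 pathway lists (blue) in wild-type differentiation (left) and between the neutrophil groups (right). Each point is 1 gene, filled where adjusted p is under 0.05, and black lines are medians. Values of genes under background on both arrays of a group are drawn as fitted. The S phase list has a median of −3.39 on the left and 2.48 on the right, and the methyl donor list −3.07 and 0.87.

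The genes whose profiles over the 8 genotype arrays were most like each member's were ranked by Pearson r among 8843 genes. These arrays fall into 4 groups of 2, so where groups stand apart a high r mainly reflects a shared order of 4 group levels. No test is attached. In Ezh2-null progenitors the replicates of Tet2 (10.16 and 11.13) and Tet3 (9.51 and 10.18) differed by more than their group means span. For them r also takes in variation between replicates. Neutrophil signals of Tet1 and Dnmt3b lay under or at background. Nearest to Dnmt1 were Drosha (0.998), C1qbp (0.998) and Eef1d (0.997), and nearest to Uhrf1 were Gm5648 (0.997), Gm5903 (0.997) and Hnrnpd (0.996). Dnmt3b was closest to Impdh1 (0.998), Sigirr (0.997) and Gnpat (0.996), and Tet1 to Prodh (0.998), Gm19708 (0.997) and Mdga1 (0.997). Dnmt3a was closest to Anxa6 (0.984), Mrtfb (0.972) and Raph1 (0.971). Tet2 had Zc3h7a (0.964), Mdm4 (0.956) and Gm26347 (0.942), and Tet3 had Zfp991 (0.919), Mir669f (0.853) and Mir669c (0.852).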

How the data were processed

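Per the labels' protocols, 250 ng RNA of each of 12 samples, 6 groups of 2, went onto the Mouse Transcriptome Array 1.0 (Affymetrix). The authors deposited log2 signals per transcript cluster. Per the submitters' processing notes they used the Transcriptome Analysis Console and the Affymetrix Expression Console. Versions, the normalization method and the build behind the clusters: not given in the sources used here. No cluster coordinates are printed for that reason. Of 72688 entries, 6732 controls were left out. Of the remaining 65956 clusters, 30604 carried 1 gene symbol, 2146 several and 33206 none in the platform annotation, and symbols were updated by Entrez ID through RefSeq (22818 clusters matched).

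All arrays were fitted together with limma 3.58.1 (R 4.3.3; 6 group means, residual df 6, prior df 3.06), with Benjamini-Hochberg adjustment over all clusters and a threshold of 0.05. The fit was tested on simulated data. SDs and means are over 2 arrays, and that number limits the precision. "At least" folds set the brighter group's mean against, per array, the higher of background and signal. On every genotype neutrophil array the negative control median lay above this background and would give a smaller bound.

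The members and lists were chosen with earlier results of these data known. Named beside the 7 members and Ezh2 are, per list and comparison, up to 3 called genes in each direction by size, and the 3 genes most like each member (SD of at least 0.5 over 8 arrays). Some genes of these lists were not analysed here, and the text gives the number measured. Alternatives were other scalings, fits on fewer arrays, a filter on dim clusters, the replicate number as a block, an intensity trend and leaving out each array.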

Additional observations from a re-analysis of the deposited data

Results flagged for a closer look

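Uhrf1 was singled out because its genotype difference was not the same at the 2 stages. In undifferentiated cells it was lower in Ezh2-null than in wild-type arrays (log2 fold change −1.01, which did not pass the test), and in neutrophils it was higher in those labelled Ezh2-null (1.79, which did). The interaction of genotype and stage was 2.81 (limma adjusted p = 0.00371). Ezh2 itself was not lower in those neutrophils, and all 12 mast cell and basophil and all 11 measured erythroid markers were higher there. Their part in the Uhrf1 value was not tested.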

How the results depend on the processing

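Of 43 member values (7 genes in 7 comparisons, less those that compare signals under background), 13 were called, none of these changed direction in any alternative run, and 21 of the 43 kept direction and call in all of them. The count of called members between progenitor genotypes, 1, became 0 with median centring, with only the compared arrays or only the array set fitted, with dim clusters left out, with the replicate block and with an intensity trend, and lay between 0 and 2 without 1 array. In the interaction it was 2 with dim clusters left out and 1 to 2 without 1 array, and in the comparison of genotype with drug 0 to 1 without 1 array. Changes of direction were confined to values that had not been called. With quantile normalization Dnmt1 between progenitor genotypes was −0.11. With GSK343, Tet3 was 0.0059 with median centring. Without 1 array the values ranged between progenitor genotypes from −0.14 to 0.21 (Dnmt1), −0.0082 to 0.80 (Dnmt3b), −0.70 to 0.27 (Tet2) and −0.17 to 0.51 (Tet3). Between the neutrophil groups they ranged from −0.47 to 0.030 (Dnmt3a), −0.044 to 0.26 (Dnmt3b) and −0.30 to 0.40 (Tet3). In Ezh2-null differentiation they ranged from −0.24 to 0.73 (Tet2) and −0.058 to 0.62 (Tet3), and with GSK343 from −0.057 to 0.053 (Tet3). In the interaction they ranged from −0.69 to 0.11 (Dnmt3b), −0.87 to 0.0997 (Tet2) and −0.47 to 0.24 (Tet3), and for genotype minus drug from −0.30 to 0.41 (Tet3). Dnmt3b signals in neutrophils lay at the background limit, so no direction is read from its values there. The cause of these changes was not tested. Over all clusters, calls with GSK343 numbered 0 to 8 across alternatives. Between progenitor genotypes 1969 became 351 with only the compared arrays and 1061 with only the array set, and 962 and 1060 without wild-type undifferentiated array 1 or 2. Between the neutrophil groups 7791 became 4922 without wild-type array 1 and 4023 without labelled Ezh2-null array 2. In Ezh2-null differentiation 14799 became 7591 with only the compared arrays. In the interaction 2911 became 1352 with only the array set. For genotype minus drug 2177 became 947 without vehicle array 2. The replicate numbers showed no strong shared shift: deviations of same-numbered arrays correlated from −0.109 to 0.185 in the genotype set and at −0.193 in the drug set. With 2 arrays per group this does not settle whether the samples were paired. The replicate block left 2 clusters called with GSK343 and 1503 between progenitor genotypes. A crossed block for the drug arrays, chosen after seeing the data, gave 2 called clusters and 0 members. No member had another cluster of its own, so the next brightest cluster could not be tried, and genotype minus drug could not be fitted within 1 array set.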
